A study of Homo sapiens with 4 samples.

Results

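The 38 genes described here encode translation initiation factors, the proteins that bring a ribosome to the start codon of an mRNA, together with a pair of inhibitors of cap binding and the main cytoplasmic poly(A)-binding protein. They were chosen by gene symbol, taking the row with the highest mean where a symbol has more than 1, from the 60302 rows of a table of FPKM (fragment counts divided by gene length and sequencing depth). All 38 symbols were found, each in 1 row, and all 38 passed the filter of a mean of 1 FPKM over the samples, as did 13110 genes in all.

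The table covers 4 samples of HMLE cells, a human mammary epithelial line that has been immortalized. In both groups the cells stably carried a short hairpin RNA delivered by a lentiviral vector. The 2 control samples carried a non-specific hairpin, and the 2 knockdown samples carried a hairpin against HNRNPF, whose product hnRNP F binds G-rich RNA and regulates splicing. The design text speaks of a pair of cell lines per group, and the labels do not say whether these differ in hairpin or infection, so p-values here reflect spread among these samples, which may be technical. PolyA-selected RNA was sequenced in stranded, paired-end libraries. HNRNPF was at 154 and 153 FPKM in controls 1 and 2, against 18.7 and 16.6 FPKM in knockdown samples 1 and 2, the order kept for all pairs of values below (log2 fold change -3.05, adjusted p = 0.0251 in limma). The adjusted p for HNRNPF was 0.262 without control 1 and 0.104 without control 2. Summed FPKM lay between 391184 and 396135 per sample. All 7 mammary epithelial markers examined (KRT5, KRT14, KRT17, TP63, ITGA6, EPCAM and CDH1) were above 19 FPKM in every sample, and none passed the adjusted threshold in limma. They summed to 6905 and 10412 FPKM among controls, against 8812 and 9988 FPKM after knockdown. The groups did not overlap for 3 of the 7, against 34.6% of all genes tested (17.1% lower and 17.5% higher). EPCAM was lower in knockdown (log2 fold change -0.38, adjusted p = 0.805 in limma). KRT17 (0.67, adjusted p = 0.833 in limma) and TP63 (0.37, adjusted p = 0.864 in limma) were higher. Of 4 markers of other cell types, the leukocyte gene PTPRC and the hepatocyte gene ALB were at or under 0.038 FPKM, and the mesenchymal gene PDGFRB lay between 0.335 and 0.828 FPKM. COL1A1, a fibroblast marker, was at 10.4 and 9.24 FPKM among controls, compared with 11.5 and 12.3 FPKM after knockdown, higher without overlap. The 4 summed to 9.62 to 11.2 FPKM in the controls and 11.8 to 12.8 FPKM in the knockdown samples. The part of these markers in the results was not tested.

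Initiation begins when eIF2, carrying the initiator tRNA and GTP, joins the small ribosomal subunit with eIF1, eIF3 and eIF5. The cap-binding complex of eIF4E, the helicase eIF4A and the scaffold eIF4G then brings this assembly to the mRNA, where it scans to a start codon. The exchange factor eIF2B reloads eIF2 with GTP, and the stress-activated kinases slow this step by phosphorylating the alpha subunit of eIF2. The inhibitors called 4E-BPs hold eIF4E away from eIF4G until the kinase mTOR phosphorylates them. mTOR also controls mRNAs that begin with a C and a run of pyrimidines, the terminal oligopyrimidine (TOP) tract found on many mRNAs of the translation machinery.

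The first bases of the members are shown because the TOP tract is a feature that the choice of members did not use. RefSeq windows around annotated starts on GRCh38.p14 were found for 30 of the 38 genes, 43 windows in all. A start was counted as a TOP start where its first base is C and at least 4 further bases without a break are C or T. By this count 7 of the 30 genes (23.3%) had a TOP start, against 5.14% of the 27305 symbols with windows. Those symbols were not limited to the genes tested here, and a gene counted if any of its windows did. Among the eIF3 subunits 4 of the 7 with a window had one, while EIF3A, EIF3E, EIF3G, EIF3H and EIF3L had no window. The lines below give 10 bases before the annotated start and 20 from it onward. Capitals mark the pyrimidine run that begins at the start, or the first base alone where it is a purine. The first 7 are the genes with a TOP start, and the last 3 are genes without one whose values are described further on.
EIF3D, chr22:36529147-36529176, minus strand: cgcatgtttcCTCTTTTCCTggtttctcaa
EIF3F, chr11:7987327-7987356, plus strand: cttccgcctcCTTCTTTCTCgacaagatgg
EIF3K, chr19:38619178-38619207, plus strand: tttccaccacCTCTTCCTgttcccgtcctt
EIF3M, chr11:32583821-32583850, plus strand: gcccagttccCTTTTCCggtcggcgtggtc
EIF2A, chr3:150546777-150546806, plus strand: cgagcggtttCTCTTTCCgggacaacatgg
EIF4A2, chr3:186783567-186783596, plus strand: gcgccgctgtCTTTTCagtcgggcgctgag
EIF4B, chr12:53006446-53006475, plus strand: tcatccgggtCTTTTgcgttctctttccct
EIF2S1, chr14:67360318-67360347, plus strand: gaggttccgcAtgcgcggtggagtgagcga
EIF2B5, chr3:184135348-184135377, plus strand: cagcttccttGcggaagtggtgaccgtgag
EIF2B3, chr1:44986576-44986605, minus strand: gctgtcagtcAgaggcggcgtggagatcgc
These runs describe the annotated starts, and the starts used in these cells were not analysed here.

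The initiation factors were abundant and close in level across the 4 samples. Their FPKM ran from 8.55 for EIF4EBP2 in control 1 to 699 for PABPC1 in control 2, and the median of the 38 means was 71.7 FPKM. The poly(A)-binding protein gene PABPC1 was highest, followed by EIF5A, whose product carries the modified amino acid hypusine, and by EIF3E, a subunit of eIF3. The cap-binding protein gene EIF4E was lowest by its mean. For 20 of the 38 genes the highest of the 4 samples was less than 1.2 times the lowest, and only EIF5, EIF2B2, PABPC1 and EIF4EBP2 spanned more than 1.5 times. The median span was 1.19 times, against 1.254 times over the 5812 tested genes within the same range of mean FPKM. These genes were matched to the members by the limits of the range only, not by level within it. Together the members held 1.01% and 1.09% of the summed FPKM among controls, against 1.001% and 1.006% after knockdown.

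**Figure D1:**
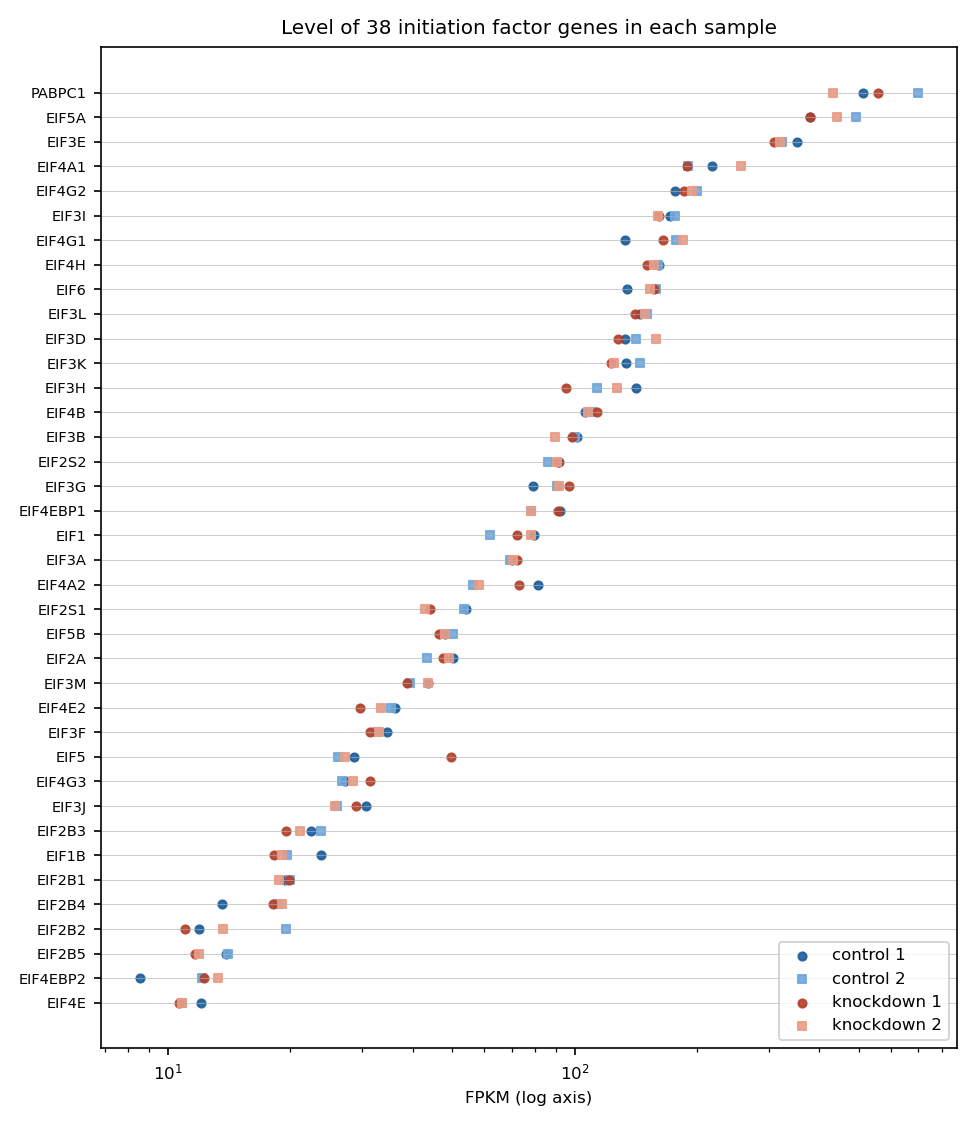
FPKM of each of the 38 genes (rows, ordered by mean) in the 4 samples on a log axis. Blue points are controls and red points knockdown samples, with circles for replicate 1 and squares for replicate 2. Most genes lie within a narrow span in all 4 samples, while EIF5 has 1 high value (49.7 FPKM) in knockdown 1.

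None of the 38 initiation factor genes passed an adjusted p of 0.05 in limma, in either direction (lowest adjusted p = 0.765). Over all genes tested 0.00763% passed, HNRNPF alone. At an unadjusted p under 0.05 in limma there was 1 member, EIF2S1, which was lower in knockdown. Over all genes 6.08% lay under 0.05, 3.02% lower and 3.06% higher. The groups did not overlap, with both knockdown samples above or both below the controls, for 14 of the 38 (36.8%), against 34.6% of all genes tested. Of these, 10 were lower in knockdown (17.1% of all genes tested were) and 4 were higher (17.5% of all genes). Leaving out 1 sample moved the log2 fold change by over 1.5 times for 10 of the 14. Among the 5812 tested genes in the members' range of mean FPKM, 22.5% were lower without overlap and 15.4% higher. The log2 fold change was below 0 for 23 of 38 members (60.5%), with a median of -0.04, and for 49.8% of all genes tested, with a median of 0.00120. Among the 5812 genes in the members' range it was below 0 for 55.1%, with a median of -0.02. In bulk RNA, fewer cells of a kind and less RNA per cell cannot be told apart.

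The intervals give the precision of each difference, gene by gene and without adjustment over genes. On the log2(FPKM + 1) scale the 95% interval of the difference (limma) lay within 1.5-fold either way for 29 of the 38 genes and within 2-fold for 37. The exception was EIF5, with an interval of -0.38 to 1.21. The median half-width was 0.29. The missing calls do not show that the levels were equal.

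**Figure D2:**
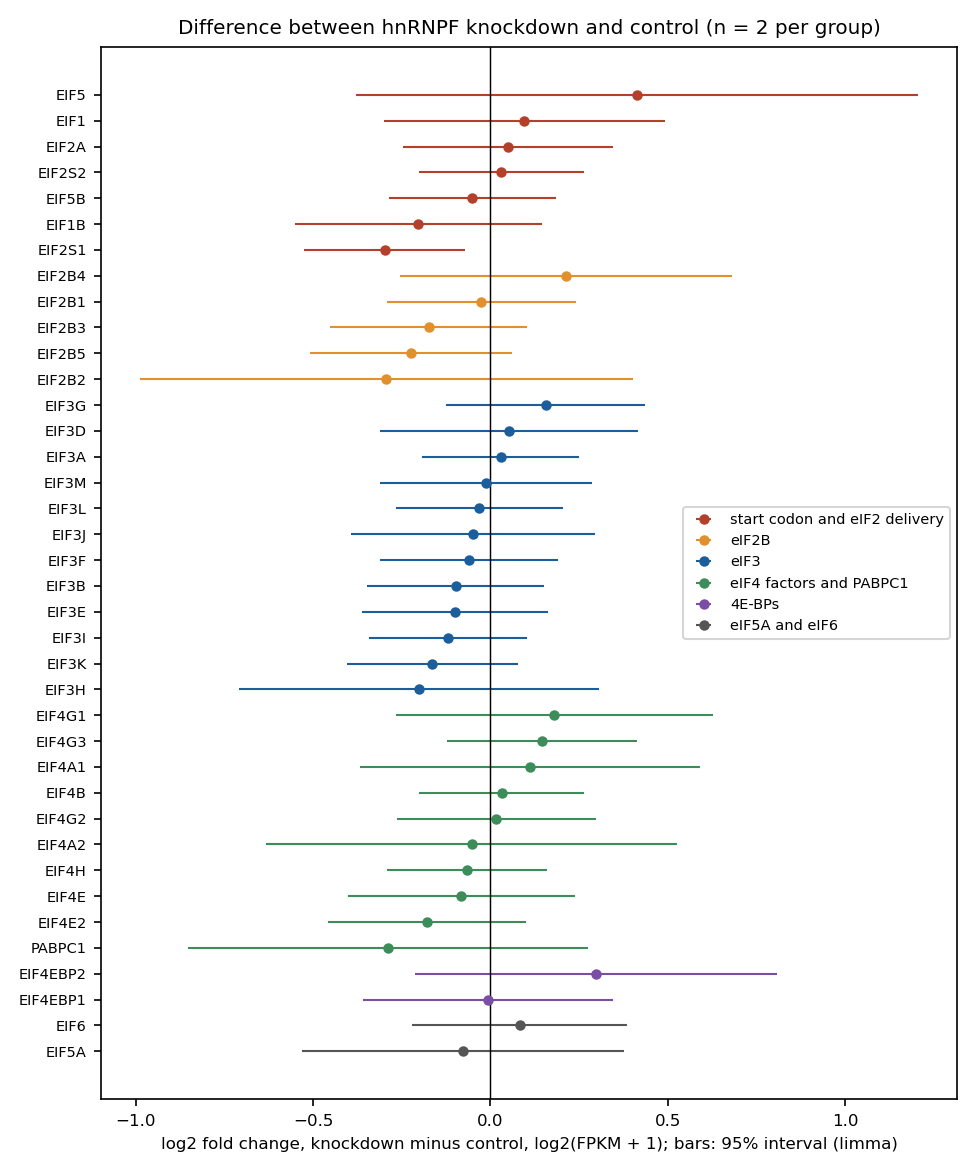
Log2 fold change (knockdown minus control, log2(FPKM + 1) scale) of each member with its 95% interval from limma, 2 samples per group, coloured by role. Every interval except that of EIF2S1 (-0.53 to -0.07) includes 0, and no gene passed after adjustment over all genes.

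Of the 7 genes for eIF2 delivery and start codon selection, EIF2S1 had the smallest p of all 38 members. EIF2S1 (ENSG00000134001.12, GRCh37 chromosome 14, plus strand, 67826714 to 67853233) encodes the alpha subunit of eIF2, the target of the stress kinases. It stood at 54.0 and 53.4 FPKM in control cells against 44.1 and 42.9 FPKM in knockdown cells. Both knockdown values were below both controls, and samples of a group differed by little. The means were 53.7 ± 0.418 and 43.5 ± 0.830 FPKM (SD, n = 2), a 1.23-fold lower level in knockdown. The log2 fold change was -0.30 (SE 0.0855), with an unadjusted p of 0.0206 and an adjusted p of 0.765 in limma. The unadjusted p was 0.0501 after median-ratio scaling and between 0.0664 and 0.108 without any 1 sample, with log2 fold changes from -0.32 to -0.28.

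The other eIF2 subunits did not share this pattern in their values. EIF2S2, the beta subunit, was at 91.6 and 85.8 FPKM with the non-specific hairpin and 90.9 and 90.4 FPKM with the HNRNPF hairpin, with overlapping groups. The gamma subunit gene EIF2S3, which is not among the 38, was at 144 and 140.4 FPKM among controls, compared with 150.4 and 138 FPKM after knockdown. The ratio of EIF2S2 to EIF2S1 FPKM was 1.70 and 1.61 among controls, against 2.06 and 2.11 after knockdown. This ratio was formed after the values of EIF2S1 were seen and is given as a description.

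The remaining genes of this role include near relatives of eIF1 and the factors of GTP hydrolysis and subunit joining. EIF1, which guards the stringency of start codon selection, was at 79.5 and 61.8 FPKM in control cells against 72.0 and 78.0 FPKM in knockdown cells. Its close paralog EIF1B (GRCh37 chromosome 3, plus strand, 40351175 to 40353915) was at 23.8 and 19.6 FPKM with the non-specific hairpin and 18.2 and 19.0 FPKM with the HNRNPF hairpin. The EIF1B groups did not overlap, but control 2 and knockdown 2 were close (log2 fold change -0.20, adjusted p = 0.916 in limma). The EIF1B log2 fold change was -0.072 without control 1 and -0.33 without control 2. EIF1 was thus 3.35 and 3.15 times EIF1B among controls, against 3.95 and 4.10 times after knockdown.

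EIF5, the GTPase-activating protein of eIF2, was at 28.7 and 26.2 FPKM among controls, while knockdown 1 held 49.7 FPKM and knockdown 2 held 27.2 FPKM. Only knockdown 1 stood apart, and the log2 fold change went from 0.41 to -0.01 without it. EIF5B, which joins the ribosomal subunits, ranged from 46.5 to 50.1 FPKM over the 4 samples. EIF2A, a separate tRNA-binding factor that is not a subunit of eIF2, ranged from 43.3 to 50.3 FPKM. Both had overlapping groups.

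The eIF2B genes had 4 of 5 log2 fold changes below 0, with a median of -0.17, and none passed the adjusted threshold. The 2 whose groups did not overlap encode the epsilon and gamma subunits, which form the catalytic part of the exchange factor. Over all genes tested 34.6% did not overlap, 17.1% were lower in this way, and 49.8% had a log2 fold change below 0. Whether the catalytic subunits differ from the others was not tested. EIF2B5 (epsilon; GRCh37 chromosome 3, plus strand, 183852826 to 184402546) was at 13.9 and 14.1 FPKM among controls, compared with 11.7 and 11.9 FPKM after knockdown. That is 1.18-fold lower (log2 fold change -0.22, SE 0.107, adjusted p = 0.870 in limma), and the samples of each group were close together.

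EIF2B3 (gamma; GRCh37 chromosome 1, minus strand, 45316194 to 45452394) was at 22.4 and 23.8 FPKM in control cells against 19.6 and 21.2 FPKM in knockdown cells. This was 1.13-fold lower (log2 fold change -0.17, SE 0.104, adjusted p = 0.914 in limma). The listed locus of EIF2B5 spans that of 9 other genes of at least 1 FPKM on its strand, EIF4G1 among them, and how fragments were shared between them was not analysed here.

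The 3 regulatory eIF2B subunits showed no separation between the groups. EIF2B1 (alpha) was at 19.4 and 19.96 FPKM with the non-specific hairpin and 19.8 and 18.8 FPKM with the HNRNPF hairpin. EIF2B2 (beta) was at 12.0 and 19.5 FPKM among controls, compared with 11.05 and 13.7 FPKM after knockdown, so its controls differed from each other by more than the group means did. EIF2B4 (delta) was at 13.6 and 18.7 FPKM in control cells against 18.2 and 19.1 FPKM in knockdown cells, with control 1 the low value. The summed FPKM of the 5 genes was 81.2 and 96.0 among controls, against 80.3 and 84.6 after knockdown, so the groups overlap.

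**Figure D3:**
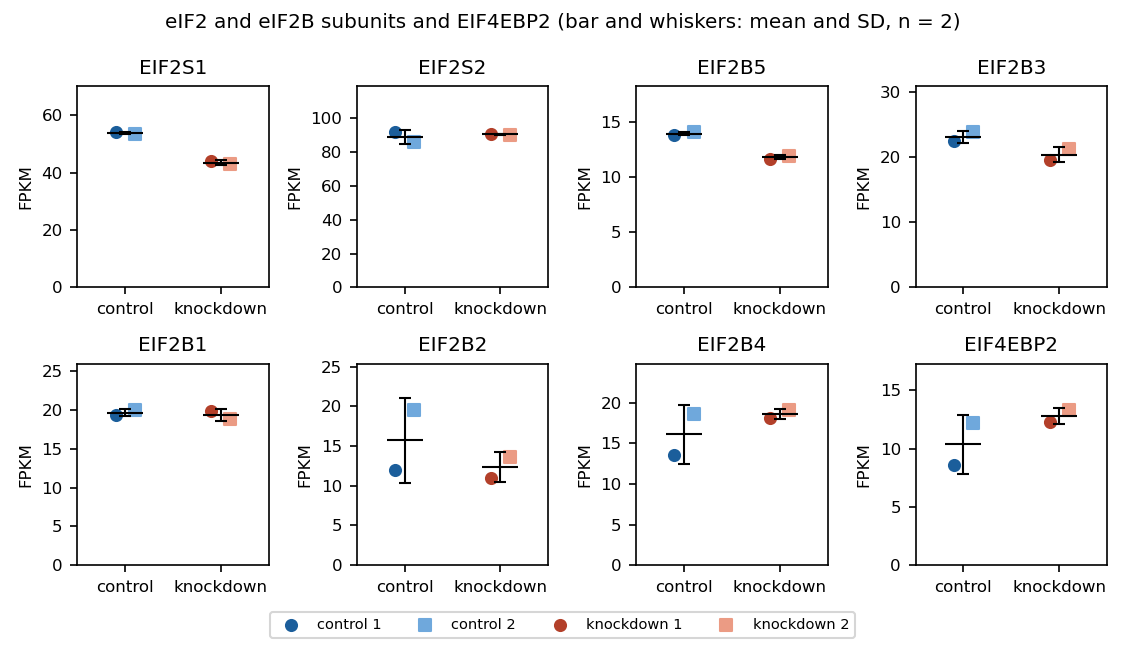
FPKM in each sample for the eIF2 subunits EIF2S1 and EIF2S2, the 5 eIF2B subunits and the 4E-BP gene EIF4EBP2. Points are samples, and the bar with whiskers is the mean and SD of 2 samples. EIF2S1, EIF2B5 and EIF2B3 have both knockdown samples below both controls, while EIF2S2, EIF2B1, EIF2B2 and EIF2B4 overlap.

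The 12 eIF3 genes among the members encode subunits of the largest initiation complex, which holds the small subunit and the mRNA together. Of these, 9 had log2 fold changes below 0, the median was -0.06, and none passed the adjusted threshold. It was below 0 for 49.8% of all genes tested, and for 55.1% of those in the members' range of mean FPKM (median -0.02). For 11 of the 12 the log2 fold change was under 0.2 in size. The groups did not overlap for 6: EIF3K, EIF3I, EIF3B and EIF3E were lower in knockdown, and EIF3G and EIF3A were higher. Over all genes tested 17.1% were lower and 17.5% higher in this way. Summed over the 12, FPKM came to 1436 and 1409.8 among controls (mean 1423 ± 18.7, SD) and to 1323 and 1395 after knockdown (mean 1359 ± 50.7, SD).

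EIF3K, a small subunit at the edge of the complex, had the smallest p among them. EIF3K (GRCh37 chromosome 19, plus strand, 39109722 to 39127595) was at 134 and 145 FPKM with the non-specific hairpin and 123 and 125 FPKM with the HNRNPF hairpin, 1.12-fold lower. Its log2 fold change was -0.16 (SE 0.0909, adjusted p = 0.896 in limma) and -0.11 without control 2. EIF3I, a WD-repeat subunit, was at 172 and 177 FPKM among controls, compared with 161 and 160.0 FPKM after knockdown. EIF3G, which contacts the scanning mRNA, was at 79.1 and 90.3 FPKM in control cells against 96.7 and 91.8 FPKM in knockdown cells.

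The core scaffold gene EIF3A had the narrowest span of the 12 over the 4 samples, at 70.0 and 69.5 FPKM with the non-specific hairpin and 72.0 and 70.4 FPKM with the HNRNPF hairpin. Its groups did not overlap, although the highest value was only 1.04 times the lowest. EIF3H had the widest span of the 12, with 141 and 114 FPKM among controls, compared with 95.2 and 127 FPKM after knockdown. Levels within the complex differed by far more between subunits than between groups. By mean over the 4 samples, EIF3E was at 326 FPKM and EIF3J, a loosely bound subunit, at 27.9 FPKM.

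The cap-binding, helicase and scaffold genes and PABPC1 numbered 10, of which 5 had log2 fold changes below 0, and none passed the adjusted threshold. EIF4E2, a cap-binding relative of eIF4E known for repressing mRNAs, had the smallest p. EIF4E2 (GRCh37 chromosome 2, plus strand, 233414762 to 233448354) was at 36.2 and 35.3 FPKM in control cells against 29.6 and 33.4 FPKM in knockdown cells. The groups did not overlap and the level was 1.13-fold lower (log2 fold change -0.18, SE 0.105, adjusted p = 0.908 in limma), with a log2 fold change of -0.095 without knockdown 1. EIF4E itself was at 12.1 and 10.8 FPKM with the non-specific hairpin and 10.7 and 10.8 FPKM with the HNRNPF hairpin. The EIF4E value is uncertain, because 5 rows named as its pseudogenes, EIF4EP2 almost alone, held 15.3 and 14.9 FPKM among controls, compared with 15.3 and 14.2 FPKM after knockdown.

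The helicase paralogs EIF4A1 and EIF4A2 differed between samples in ways that the groups did not follow. EIF4A1 was at 218 and 191 FPKM in control cells against 189 and 257 FPKM in knockdown cells. The readthrough gene SENP3-EIF4A1 overlaps it and held 16.01 and 20.2 FPKM with the non-specific hairpin and 23.5 and 18.9 FPKM with the HNRNPF hairpin. EIF4A2 was at 81.3 and 56.4 FPKM among controls, compared with 72.9 and 58.4 FPKM after knockdown, so in both groups replicate 1 was the higher sample. EIF4A1 was 2.68 and 3.38 times EIF4A2 among controls, against 2.59 and 4.397 times after knockdown.

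Among the scaffold genes, EIF4G1 was at 133 and 177 FPKM in control cells against 165 and 184 FPKM in knockdown cells. Its paralog EIF4G3 was at 27.2 and 26.7 FPKM with the non-specific hairpin and 31.4 and 28.5 FPKM with the HNRNPF hairpin, without overlap (log2 fold change 0.15, adjusted p = 0.918 in limma, and 0.078 without knockdown 1). EIF4G2, a relative that lacks the eIF4E-binding site, ranged from 176 to 200.3 FPKM with overlapping groups. The helicase cofactor genes EIF4B and EIF4H ranged from 106 to 114 FPKM and from 151 to 162 FPKM. EIF4H had both knockdown samples below both controls, by 1.05-fold in the means.

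PABPC1, which binds the poly(A) tail and eIF4G, was at 513 and 699 FPKM among controls, compared with 556 and 433 FPKM after knockdown. Its groups overlapped, and its 95% interval was wide, from -0.85 to 0.28 on the log2 scale. Rows named as its pseudogenes or like genes summed to 15.4 and 6.14 FPKM in control cells against 16.02 and 6.23 FPKM in knockdown cells, so replicate 1 was the higher sample in both groups there.

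The 4E-BP inhibitors differed from each other in level. EIF4EBP1 was at 91.9 and 78.2 FPKM with the non-specific hairpin and 91.0 and 78.2 FPKM with the HNRNPF hairpin, so replicate 1 was higher in both groups and the group means were nearly equal. EIF4EBP2 (GRCh37 chromosome 10, plus strand, 72164135 to 72188374) was at 8.55 and 12.2 FPKM among controls, compared with 12.3 and 13.3 FPKM after knockdown. Its groups did not overlap, but control 2 and knockdown 1 were almost the same. The level was 1.23-fold higher in knockdown (log2 fold change 0.30, SE 0.192, adjusted p = 0.916 in limma), and the log2 fold change was 0.06 without control 1 and 0.53 without control 2. The 4E-BP sum stood at 8.32 and 8.34 times EIF4E in the controls and at 9.68 and 8.44 times in the knockdown samples. Once the pseudogene rows were added to EIF4E, the ratio was 3.67 and 3.51 among controls, against 3.97 and 3.65 after knockdown, and the groups overlapped.

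The last 2 members act at other steps. EIF5A, which helps ribosomes through difficult peptide bonds, was at 379 and 492 FPKM in control cells against 379 and 442 FPKM in knockdown cells. EIF6, which keeps the large ribosomal subunit from joining too early, was at 135 and 159 FPKM with the non-specific hairpin and 157 and 153 FPKM with the HNRNPF hairpin. Both overlapped between the groups.

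The members were also described by whether they have a TOP start, with no test between these sets. The 7 with a TOP start had a median log2 fold change of -0.01 and a range of -0.16 to 0.05. The 23 with windows and no TOP start had a median of -0.05 and a range of -0.30 to 0.41. The groups did not overlap for 1 of the 7, EIF3K, and for 10 of the 23, against 34.6% of all genes tested.

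The surrounding genes of the pathway came from 4 lists, and none of their 53 tested members passed the adjusted threshold in limma. The 15 tested genes of the list of other initiation factors and related genes had 11 log2 fold changes below 0, with a median of -0.08. Of all genes tested, 49.8% were below 0. Without overlap 6 of the 15 were lower, against 17.1% of all genes tested. These were PABPC4, ABCE1, EIF4A3, MCTS1, EIF1AD and EIF5A2, not all of which are initiation factors. The groups overlapped for the rest, EIF2S3, EIF3C, EIF3CL and EIF1AX among them. EIF5A2, the less abundant paralog of EIF5A, was at 3.67 and 3.36 FPKM among controls, compared with 2.40 and 2.345 FPKM after knockdown (unadjusted p = 0.0391, adjusted p = 0.806 in limma). ABCE1, the ribosome recycling factor, was at 72.4 and 70.8 FPKM in control cells against 65.7 and 59.7 FPKM in knockdown cells. PAIP1, a PABPC1 partner, had its low value in knockdown 2 alone (20.5 FPKM, against 28.5 to 30.6 FPKM in the other samples).

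The 8 genes of eIF2 alpha kinases and phosphatase subunits had 4 log2 fold changes below 0 and a median of 0.00199. The phosphatase catalytic subunit gene PPP1CC was at 84.8 and 64.3 FPKM with the non-specific hairpin and 98.0 and 89.4 FPKM with the HNRNPF hairpin. The kinase gene EIF2AK4, whose product GCN2 senses uncharged tRNA, ranged from 27.5 to 33.4 FPKM with overlapping groups. PPP1R15A, the inducible phosphatase subunit known as GADD34, ranged from 10.7 to 12.2 FPKM, also with overlap.

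Among the 18 tested genes of mTOR and MNK signalling and their binding proteins, 3 lay at an unadjusted p under 0.05, against 6.08% of all genes. AKT1S1, which encodes the mTOR inhibitor PRAS40, was at 21.1 and 22.7 FPKM among controls, compared with 31.5 and 28.7 FPKM after knockdown (log2 fold change 0.44, unadjusted p = 0.0111, adjusted p = 0.678 in limma). RPS6KB2, an S6 kinase gene, was at 26.4 and 31.9 FPKM in control cells against 20.3 and 22.0 FPKM in knockdown cells (log2 fold change -0.44, adjusted p = 0.773 in limma). MKNK2, whose product phosphorylates eIF4E, was at 38.3 and 36.3 FPKM with the non-specific hairpin and 49.1 and 44.2 FPKM with the HNRNPF hairpin (log2 fold change 0.31, adjusted p = 0.797 in limma). The groups did not overlap for 11 of the 18, 8 lower and 3 higher, against 34.6% of all genes tested.

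The 12 tested elongation and termination factors were split evenly by sign. EEF1B2, an exchange factor for the elongation factor that carries tRNA, was at 295 and 318 FPKM among controls, compared with 236 and 271 FPKM after knockdown (log2 fold change -0.28, adjusted p = 0.836 in limma). DHPS, the enzyme that begins hypusine synthesis on eIF5A, was at 21.0 and 22.4 FPKM in control cells against 29.4 and 24.2 FPKM in knockdown cells. EEF2K, the kinase that inhibits elongation factor eEF2, was at 10.5 and 9.84 FPKM with the non-specific hairpin and 8.60 and 8.50 FPKM with the HNRNPF hairpin. For each of these 3 genes, named for having the smallest p, the groups did not overlap. That held for 5 of the 12, 3 lower and 2 higher, against 34.6% of all genes tested.

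**Figure D4:**
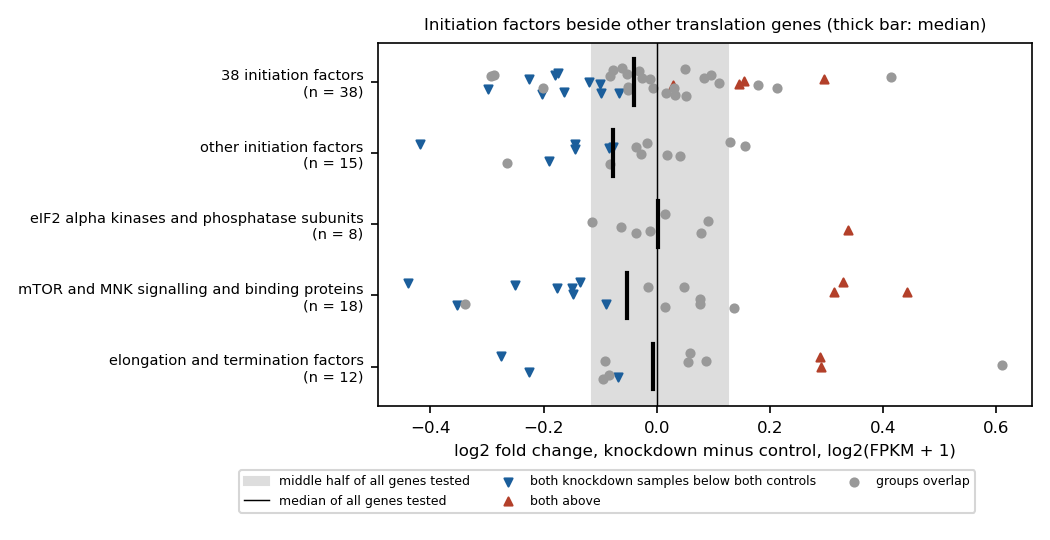
Log2 fold change (knockdown minus control, log2(FPKM + 1) scale) of each tested gene in the 38 initiation factors and in 4 lists of related genes. Triangles mark genes whose groups do not overlap, thick bars are list medians, and the grey band is the middle 50% of all genes tested (-0.11 to 0.13). The medians of all 5 sets lie inside the band.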

How the data were processed

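The deposited values are FPKM, scaled by the authors for gene length and library depth, 1 column per sample per the file headers. The GRCh37 build, STAR 2.5.3a and Cuffdiff 2.2.1 are listed without roles, per the submitters' processing notes, and the annotation release is not given in the sources used here. FPKM also depend on how fragments were divided among overlapping genes and copies. In genes with 1 exon, 37.9% to 41.3% of low values were whole multiples (within 0.02) of the commonest lowest step, so reads were not recovered, depth is unknown and no count test was run.

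Genes whose mean reached 1 FPKM were analysed as log2(FPKM + 1), on which fold changes of low genes are understated. Groups, taken from sample titles, were tested by limma 3.58.1 under R 4.3.3 (empirical Bayes with intensity trend, two-sided), with Benjamini-Hochberg adjustment over all genes tested. Fold values are ratios between group means in FPKM. An exact permutation test of 2 against 2 cannot go below 0.333, so none was run. The fit was tested on simulated data. Members and lists were chosen with earlier results of these data known. Values in every sample were given for members without group overlap and a log2 fold change of at least 0.2 in size, for the 5 with the smallest p and for the paralog pairs, for others where they complete a complex, and for up to 3 genes of each other list. Alternatives covered pseudocounts, filters, scalings, the variance model, a replicate block, left-out samples and sums with readthrough genes. Sums with copies were added after seeing the data. Sequences came from RefSeq windows (GRCh38.p14), and gene coordinates from the deposited table (GRCh37). Summaries and figures used Python 3.11.15, pandas 2.3.3 and matplotlib 3.10.9.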

Additional observations from a re-analysis of the deposited data

How the results depend on the processing

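No initiation factor gene passed the adjusted threshold under any alternative run (lowest adjusted p = 0.327, EIF2S1 with the replicate block). At an unadjusted p under 0.05 there were 0 to 3 members. The number below 0 was 21 to 24 of 38. Over all genes the count was 1, and it was 0 without a filter, 0 without the intensity trend, 0 with the replicate block, and between 0 and 2 when 1 sample was left out. The replicate block left fewer residual degrees of freedom. The deviations of same-numbered samples correlated at 0.39 over 13110 genes and at 0.15 over the 38 members. With 2 pairs this does not show a pairing. Leaving out 1 control moved the median log2 fold change of all genes to 0.06 (control 1) or -0.06 (control 2), and leaving out 1 knockdown sample moved it to -0.06 (knockdown 1) or 0.06 (knockdown 2). Of 514 member values under alternatives, 28 changed sign, 26 of them with 1 sample left out and 2 with quantile normalization, and the cause was not tested. The filters, the variance model and the replicate block cannot change a log2 fold change here, so their signs were fixed in advance. With quantile normalization EIF3M was at 0.019 (-0.012 without it) and EIF4EBP1 at 0.00716 (-0.00729 without it). No symbol had a second row to sum. With 1 sample left out, the lone sample is assumed to vary like the others, and the log2 fold changes with a sign change ranged as follows. EIF1 ranged from -0.083 to 0.27, EIF2A from -0.056 to 0.16, EIF2S2 from -0.016 to 0.078, EIF2B1 from -0.064 to 0.012, EIF2B2 from -0.62 to 0.038 and EIF2B4 from -0.00384 to 0.43. EIF3D ranged from -0.10 to 0.21, EIF3H from -0.41 to 0.00655, EIF3J from -0.16 to 0.063, EIF3L from -0.070 to 0.00715 and EIF3M from -0.096 to 0.071. EIF4A1 ranged from -0.11 to 0.33, EIF4A2 from -0.31 to 0.21, EIF4B from -0.00673 to 0.071, EIF4G1 from -0.025 to 0.38 and EIF4G2 from -0.076 to 0.11. EIF5 ranged from -0.010 to 0.84, EIF5A from -0.27 to 0.11, EIF6 from -0.035 to 0.20 and EIF4EBP1 from -0.12 to 0.11. Without a sign change, EIF3B ranged from -0.17 to -0.029 (knockdown samples left out), EIF3E from -0.16 to -0.038 and EIF3G from 0.061 to 0.25 (controls left out), EIF3A from 0.013 to 0.045 (knockdown samples left out), and EIF4H was at -0.039 without knockdown 1. Depth is unknown, so counting error could not be separated from other spread.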

Other observations

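Further genes of the mTOR list also had both knockdown samples below both controls, and they are named here after their values were seen. Of all genes tested, 17.1% were lower in this way. MTOR, the kinase itself, was at 23.0 and 20.8 FPKM with the non-specific hairpin and 18.4 and 18.03 FPKM with the HNRNPF hairpin (adjusted p = 0.840 in limma). RPS6KB1, the main S6 kinase gene, was at 9.15 and 10.6 FPKM among controls, compared with 8.12 and 6.93 FPKM after knockdown (adjusted p = 0.840 in limma). RHEB, the GTPase that activates mTOR, was at 70.7 and 65.8 FPKM in control cells against 60.6 and 59.9 FPKM in knockdown cells (adjusted p = 0.888 in limma). LARP1, which binds TOP mRNAs, was at 54.8 and 58.5 FPKM with the non-specific hairpin and 53.1 and 48.7 FPKM with the HNRNPF hairpin (adjusted p = 0.916 in limma). CYFIP1, MLST8 and PAIP2B were also lower without overlap. The groups overlapped for RPTOR (log2 fold change 0.014) and TSC2 (0.14), among others. TSC1, part of the complex that restrains RHEB, was at 7.58 and 6.16 FPKM among controls, compared with 9.88 and 7.91 FPKM after knockdown, the opposite direction (adjusted p = 0.890 in limma).

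Some translation genes stood apart in a single library or by replicate number, and they are named here after their values were seen. The termination factor gene GSPT1 was at 56.0 and 34.2 FPKM in control cells against 50.3 and 90.4 FPKM in knockdown cells, with knockdown 2 the high value. EEF1D was at 127 FPKM in knockdown 1 and between 85.9 and 89.1 FPKM in the other samples. Both its knockdown samples were above both controls, as for 17.5% of all genes tested. The helicase gene DDX3X was at 98.1 FPKM in control 1 and 98.3 FPKM in knockdown 1, but at 56.0 FPKM in control 2 and 49.8 FPKM in knockdown 2.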
